A study of Mus musculus with 8 samples.

Results

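The regions described here are the peaks of 5000 bp or more in anti-NONO RNA immunoprecipitation of mouse liver nuclei. They were chosen by peak width alone, as the deposited lists give it. The rule found 32 of 38209 peaks in the fasted NONO list, 1082 of 61737 in the 2 h re-fed list, 117 of 50609 in the 10 h re-fed list and 533 of 55946 in the IgG list, which makes 1764 of 206501 peaks in all. Livers came from wild-type C57BL/6 mice aged 14 weeks, kept under 12 h of light and 12 h of dark, that had eaten in the dark phase only for a week. The groups were fasted mice at zeitgeber time 10 (hours after lights on), mice re-fed for 2 h at zeitgeber time 14, mice re-fed for 10 h at zeitgeber time 22, and a control immunoprecipitate with IgG whose feeding state the labels do not give. Feeding state and time of day changed together. Nuclei had been purified through a sucrose cushion, each of the 8 libraries was a pool of 2 experiments, and each immunoprecipitate had an input library. With 1 library per group there is no replicate error, so values and counts are given and no difference between lists was tested.

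NONO is an RNA- and DNA-binding protein of the DBHS family, which works in a pair with SFPQ or PSPC1 and is concentrated in paraspeckles, nuclear bodies assembled on the long isoform of the non-coding RNA Neat1. It is known to bind intronic RNA, and in liver it has been studied in the response to feeding. The IgG control and the input libraries show which nuclear RNA is recovered without the NONO antibody; a liver without NONO was not used here. A HOMER peak of this width is a run of neighbouring enriched windows that lie close enough to be joined, so a wide peak can be 1 broad domain or a chain of smaller ones.

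A stretch of Neat1 and several exons are shown first because the results on Neat1 and on fold over input refer to them. The sequences are from GENCODE M21 transcripts on GRCm38 (mm10), 5′ to 3′ on the gene's strand. The widest 10 h peak over Neat1 ran from chr19:5834493-5842338 and ended 31 bases from the 3′ end of the short isoform Neat1-202, which is annotated at chr19:5842307-5845476 on the minus strand. The 300 bases centred on that edge follow, with the 150 bases under the 10 h peak in capitals; the letters AATAAA, a common polyadenylation signal, occur once in the stretch, at base 5842326, inside the capitals.
Neat1, chr19:5842189-5842488, minus strand: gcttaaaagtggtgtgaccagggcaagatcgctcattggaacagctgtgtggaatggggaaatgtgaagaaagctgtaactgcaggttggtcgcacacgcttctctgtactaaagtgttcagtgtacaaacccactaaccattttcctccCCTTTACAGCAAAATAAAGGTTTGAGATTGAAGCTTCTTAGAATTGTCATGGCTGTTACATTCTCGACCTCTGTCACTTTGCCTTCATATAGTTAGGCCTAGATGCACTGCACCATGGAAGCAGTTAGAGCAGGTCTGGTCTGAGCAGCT

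Short exons lay inside several of the wide peaks with the highest fold over input, and those that lay whole within the peak are printed as landmarks of these otherwise intronic domains. They are exon 2 of the non-coding gene 1300002E11Rik, exon 2 of Acot12 (a cytosolic acetyl-CoA thioesterase of liver), exon 16 of Hook3 (a linker of dynein to its cargo) and exons 11 and 12 of Nfxl1 (a zinc finger protein).
1300002E11Rik exon 2, chr16:21795850-21795975, plus strand: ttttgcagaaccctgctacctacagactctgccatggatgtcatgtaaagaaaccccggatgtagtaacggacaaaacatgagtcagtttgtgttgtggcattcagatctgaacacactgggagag
Acot12 exon 2, chr13:91750188-91750257, plus strand: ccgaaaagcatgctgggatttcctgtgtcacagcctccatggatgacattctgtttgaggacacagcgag
Hook3 exon 16, chr8:26048252-26048339, minus strand: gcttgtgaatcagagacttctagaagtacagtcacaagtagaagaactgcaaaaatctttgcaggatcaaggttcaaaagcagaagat
Nfxl1 exon 11, chr5:72537366-72537488, minus strand: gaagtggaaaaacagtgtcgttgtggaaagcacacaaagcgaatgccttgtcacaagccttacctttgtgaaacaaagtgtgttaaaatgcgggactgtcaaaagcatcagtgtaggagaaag
Nfxl1 exon 12, chr5:72533045-72533135, minus strand: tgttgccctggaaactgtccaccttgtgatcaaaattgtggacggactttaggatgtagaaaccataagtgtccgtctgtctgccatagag

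Wide peaks also covered whole hairpins of microRNA genes, so the mature microRNAs of the let-7 and miR-30 families among them are shown, with the seed (bases 2 to 8, which pairs with targets) in capitals. Sequences and positions are from RefSeq on GRCm38.p6. The 4 let-7 members share the seed GAGGUAG and the 3 miR-30 members share the seed GUAAACA.
mmu-let-7a-5p (chromosome 13): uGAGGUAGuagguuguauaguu
mmu-let-7d-5p (chromosome 13): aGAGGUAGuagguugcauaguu
mmu-let-7f-5p (chromosome 13): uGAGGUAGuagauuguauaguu
mmu-let-7c-5p (chromosome 16): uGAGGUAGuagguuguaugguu
mmu-miR-30a-5p (chromosome 1): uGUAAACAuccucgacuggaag
mmu-miR-30c-5p (chromosomes 1 and 4): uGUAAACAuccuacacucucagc
mmu-miR-30e-5p (chromosome 4): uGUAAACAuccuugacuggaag

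Wide peaks made up 0.0837% of the fasted list (exact 95% Clopper-Pearson interval 0.057 to 0.118%), 1.75% of the 2 h list (1.65 to 1.86%), 0.231% of the 10 h list (0.191 to 0.277%) and 0.953% of the IgG list (0.874 to 1.04%). These intervals cover counting error only. The 2 h list thus held the most wide peaks and the fasted list the fewest, with IgG second. They took 4.90%, 21.99% and 3.10% of the tags in peaks of the fasted, 2 h and 10 h lists, against 4.03% in the IgG list. Without the largest IgG peak, over Rn7sk, which took 37.5% of all tags of that library, the IgG share was 13.6%. This alternative was chosen after seeing the data, and it left the NONO shares at 5.03% (fasted), 22.2% (2 h) and 3.11% (10 h) without their own largest peak. Depth did not follow this order: the immunoprecipitates held 21032764 (fasted), 21091048 (2 h), 18275033 (10 h) and 18995778 (IgG) tags, and the tag threshold was 11 in the NONO lists and 8 in the IgG list. The Rn7sk peak lowers every other IgG value per library tag. The part of depth and tag threshold in these numbers was not tested.

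**Figure D1:**
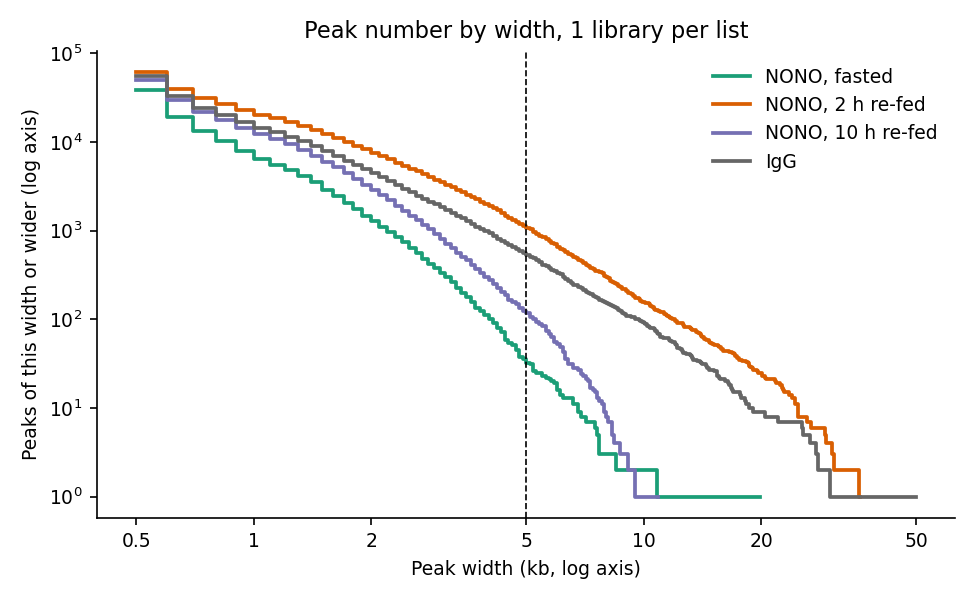
Number of peaks (vertical, log axis) at or above each width in kb (horizontal, log axis) for the 4 lists, 1 library each, with a dashed line at 5 kb. At that line the 2 h list stands at 1082 peaks and IgG at 533, above the 10 h list at 117 and the fasted list at 32.

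Median width within the class was 5988 bp (fasted), 6428 bp (2 h), 5849 bp (10 h) and 6415 bp (IgG). The widest peak of each list was 19969 bp over Neat1 in the fasted list, 35926 bp over Immp2l in the 2 h list and 10985 bp over Immp2l in the 10 h list, against 49884 bp over Nfia in the IgG list. Immp2l encodes a subunit of the inner membrane peptidase of mitochondria, and Nfia a transcription factor. The narrowest member of the fasted list was 5011 bp over Dpyd (54.2 normalised tags per kb, 2.01-fold) and the widest peak left out, over Fam214a, was 1 bp short of the limit (51.5 tags per kb, 2.02-fold). A fasted peak of 4990 bp over Zeb1, at 268 tags per kb and 5.26-fold, also fell just outside. The last 100 bp below the limit held 4 (fasted), 57 (2 h), 7 (10 h) and 20 (IgG) peaks, and the first 100 bp from it held 1, 41, 11 and 23 in the same order of lists.

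Neat1 (chr19:5824708-5845478, minus strand) was under the widest fasted peak and was among the 6 host genes with a wide peak in all 4 lists. The fasted peak, chr19:5824790-5844759, held 30057.4 normalised tags (scaled to a library of 10000000) at 1505 tags per kb and 4.33-fold over input. The 2 h peak, chr19:5820261-5844196, held 20421 tags at 853 tags per kb and 3.30-fold. At 10 h the wide peak held 4126.9 tags at 526 tags per kb and 2.51-fold, and 3 narrower peaks of 1613, 3649 and 2474 bp lay further towards the 3′ end with 2.08-, 2.19- and 2.19-fold. The IgG peak, chr19:5820510-5842543, held 23646.8 tags at 1073 tags per kb and 2.52-fold. Neat1 was therefore recovered with IgG too: the fasted fold and the 2 h fold lay above the IgG fold, and the 10 h fold was almost equal to it. The fasted peak had 1505 tags per kb, against 1049 for the IgG peaks that met it, taken over their whole widths and so partly outside it. That IgG value is 1678 when the Rn7sk peak is left out of the IgG library total, so which of the pair is denser turns on that scaling.

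The lists differed in how much of the 5′ part of Neat1 they covered. Of the 3170 bp that the short isoform spans, peaks covered 77.4% in the fasted list, 59.6% in the 2 h list and 1.01% in the 10 h list, against 59.5% in the IgG list. Of the 17599 bp of the long isoform alone, they covered 99.5% (fasted) and 84.0% (10 h), and every base in the 2 h and IgG lists. The edge of the 10 h peak shown above thus fell at the end of the short isoform, within the 500 bp window of the peak caller. The wide IgG peak also ended within that window, 236 bp from the end of the short isoform, so such an edge was not particular to NONO. A narrower IgG peak of 1649 bp lay further towards the 5′ end. Malat1, the neighbouring nuclear-speckle RNA, had no peak in any of the 4 lists.

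**Figure D2:**
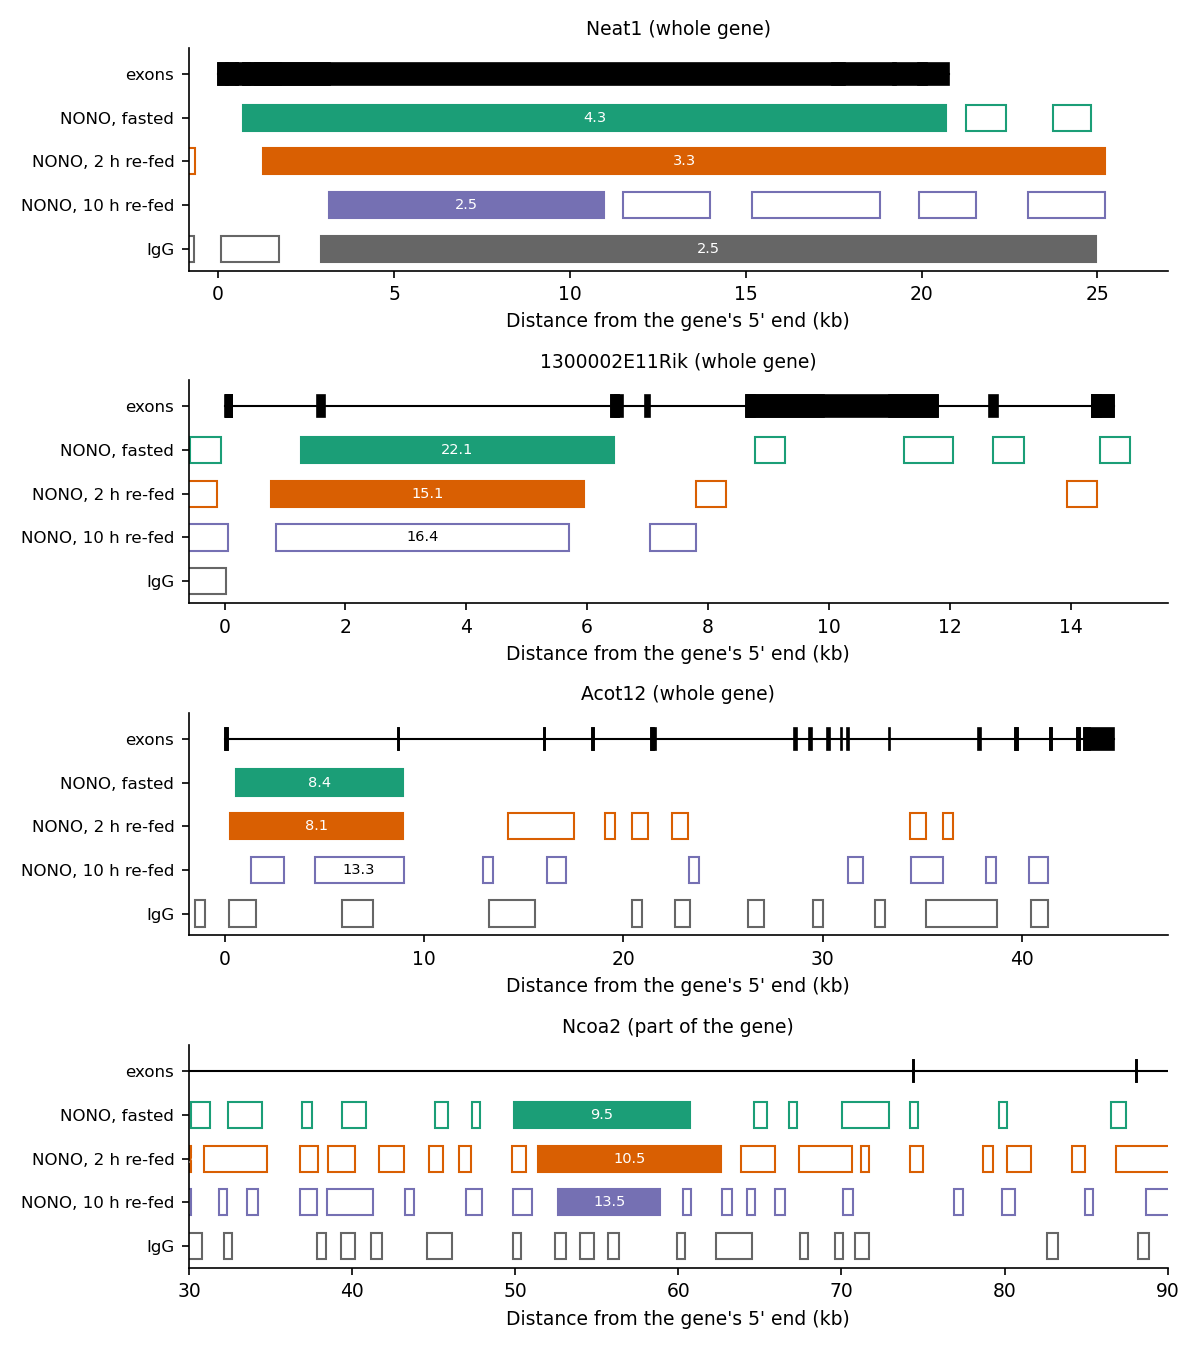
Peaks over Neat1, 1300002E11Rik, Acot12 and part of Ncoa2 by distance in kb from the 5′ end of the gene, with exons in black, filled boxes for peaks of 5 kb or more, open boxes for narrower peaks, and the fold over input printed in wide peaks and in narrower ones of at least 4 kb and 8-fold. Over 1300002E11Rik the NONO domains of 22.1-, 15.1- and 16.4-fold have no IgG peak below them, whereas over Neat1 the IgG list has a wide peak of 2.5-fold.

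Most wide peaks were only weakly enriched over input. The authors' fold had a median of 2.45 (fasted), 2.44 (2 h) and 2.24 (10 h) over wide NONO peaks and 2.65 over wide IgG peaks, where 2-fold was needed for a peak to be called. At 4-fold or more there were 9 of 32 fasted wide peaks beside 21.0% of all fasted peaks, 16 of 1082 at 2 h beside 29.4%, 2 of 117 at 10 h beside 18.6%, and 7 of 533 in the IgG list beside 51.2%. Fold is a ratio to input, and narrow peaks can reach high folds on a few input tags, so wide and narrow peaks are not on the same footing in this count. The 27 NONO peaks at 4-fold or more lay on 19 host genes and are described next. They were picked by their fold, so their values are a description.

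**Figure D3:**
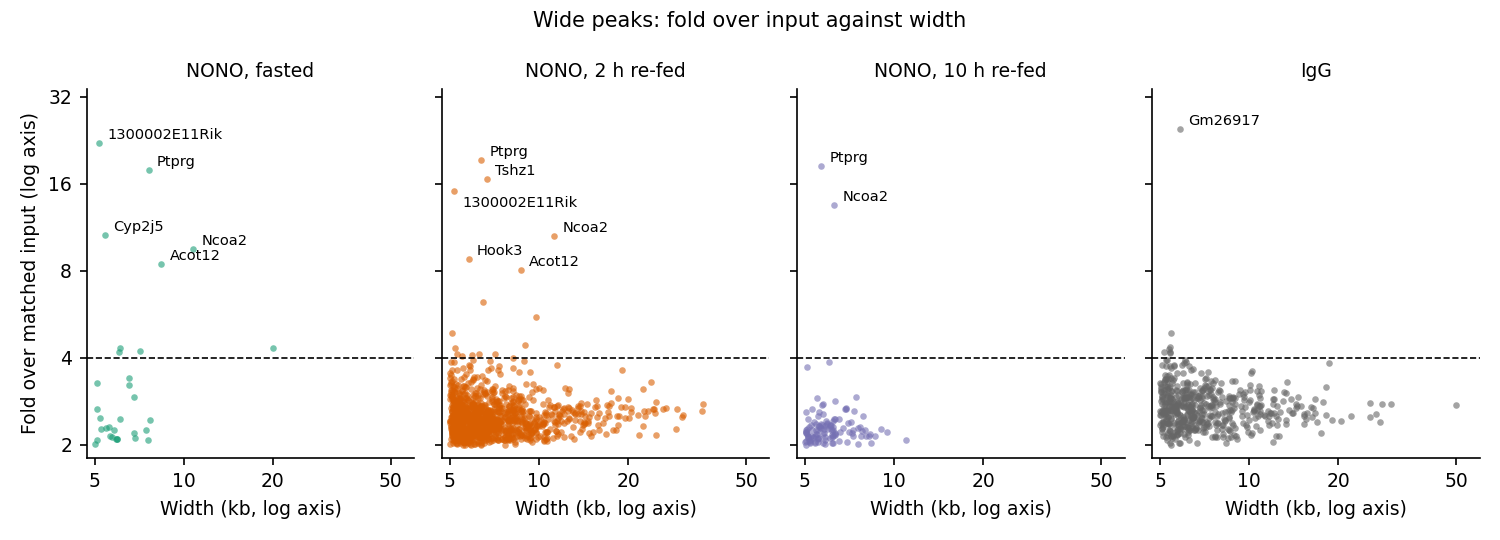
Fold over the matched input (vertical, log axis) against width in kb (horizontal, log axis) for every wide peak, 1 panel per list, with a dashed line at 4-fold and host genes named from 8-fold. Nearly all points of the 2 h, 10 h and IgG panels lie between 2- and 4-fold, while 9 of 32 fasted points lie at 4-fold or more. From 8-fold stand 1300002E11Rik, Ptprg, Ncoa2, Acot12, Tshz1, Cyp2j5 and Hook3 in the NONO panels and Gm26917 in the IgG panel.

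1300002E11Rik, a long intergenic non-coding RNA gene on chromosome 16, carried the highest fold of any wide NONO peak. The fasted peak, chr16:21795580-21800761, had 1975 normalised tags, 381 tags per kb and 22.1-fold over input. The 2 h peak, chr16:21795092-21800262, had 1468.9 tags, 284 tags per kb and 15.1-fold. The 10 h peak at the same place was 4853 bp wide, just under the limit, with 276 tags per kb and 16.4-fold. No IgG peak lay over either wide peak. Intron 2 of the transcript 1300002E11Rik-201 held 91.5% of the fasted peak and 82.9% of the 2 h peak, and the domain began 1.2 kb (fasted) and 0.7 kb (2 h) from the transcript start.

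A domain in intron 1 of Ptprg, a receptor-type tyrosine phosphatase, was wide at all 3 times. It had 126 (fasted), 112 (2 h) and 149.0 (10 h) tags per kb at 17.8-, 19.3- and 18.4-fold, against 11.4 tags per kb at 4.78-fold in the IgG peak that covered 41.9% of the fasted peak. The intron is 166.8 kb long, and the peaks began 101.8, 103.0 and 101.9 kb from the transcript start. Ncoa2, a coactivator of nuclear receptors, was the only host with a wide peak at all 3 NONO times and none with IgG. Its domain, again in intron 1, spanned chr1:13313379-13324148 in the fasted list with 143 tags per kb, chr1:13311454-13322685 at 2 h with 89.97 tags per kb and chr1:13315189-13321448 at 10 h with 147 tags per kb. The folds were 9.48 (fasted), 10.5 (2 h) and 13.5 (10 h). The IgG peaks that met the 10 h region had 18.8 tags per kb, the largest of them at 2.79-fold. In both genes all 3 NONO densities and folds stood above the IgG values.

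Acot12 was dense in the fasted library. Its intron 1 and exon 2 lay under a fasted peak, chr13:91742077-91750481, of 9183.3 tags, 1093 tags per kb and 8.40-fold. The 2 h peak, chr13:91741795-91750487, had 3940.1 tags, 453 tags per kb and 8.05-fold, and at 10 h there were 2 narrower peaks with 522 tags per kb and 13.3-fold in the larger. IgG peaks covered 30.4% of the fasted region at 37.3 tags per kb and 2.5-fold. Density was highest when fasted and fold over input was highest at 10 h, and all 3 NONO libraries stood above IgG in both.

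In Hook3 the 2 h peak, chr8:26047978-26053771, had 74.1 tags per kb at 8.79-fold, beside 63.0 tags per kb at 10.95-fold in the narrower fasted peak and 96.2 tags per kb at 4.09-fold in the narrower 10 h peak. In Nfxl1 the 2 h peak, chr5:72532712-72537796, had 135 tags per kb at 4.88-fold, beside 88.6 (fasted, 4.68-fold) and 73.6 (10 h, 4.24-fold) tags per kb. Neither was met by an IgG peak, and of the 19 hosts only 1300002E11Rik, Hook3 and Nfxl1 had none over such a peak. The exons printed above lie within these domains.

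Among the other hosts of this class, Map2k1, the kinase MEK1 of the ERK pathway, had 78.8 (fasted) and 63.9 (2 h) tags per kb at 4.33- and 4.11-fold. These peaks lay at the start of intron 1, 0.8 and 0.4 kb from the transcript start. The IgG peaks that met the fasted region had 16.4 tags per kb. Cyp2j5, an arachidonic acid epoxygenase, had 18.5 tags per kb at 10.6-fold when fasted, against 13.9 tags per kb with IgG. That IgG value is 22.3 tags per kb with the Rn7sk peak left out of the library total, so which is denser turns on the scaling. Tshz1, a zinc finger transcription factor gene, had 103 tags per kb at 16.6-fold at 2 h, in intron 1, against 9.04 tags per kb with IgG, and narrower peaks of 19.97-fold (fasted) and 20.4-fold (10 h) lay in the same region. Zeb1, a transcriptional repressor gene, had 206 tags per kb at 5.55-fold at 2 h, against 30.2 tags per kb with IgG. Cyp7b1, the oxysterol 7-alpha-hydroxylase of the acidic bile acid pathway, had 575 tags per kb at 4.21-fold when fasted, against 68.4 tags per kb with IgG. The 7 hosts not yet named, Shoc2, Tbc1d5, Gm5834, Slc22a30, Ate1, Lrig1 and Arl15, had 12.4 to 52.9 tags per kb at 4.04- to 6.24-fold. IgG peaks that met them had 10.1 to 25.1 tags per kb. On Slc22a30, Ate1, Lrig1, Shoc2 and Arl15 the largest of these IgG peaks had the higher fold, at 11.1, 6.24, 4.99, 4.78 and 4.51. On Tbc1d5 and Gm5834 it had the lower fold, at 2.84 and 3.53, but a smaller IgG peak over the Tbc1d5 region had 7.28-fold, above the 4.42-fold of NONO. On Arl15 IgG was also denser, at 15.9 against 12.4 tags per kb, and on Lrig1 the densities were 15.5 and 15.9.

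Intron 1 held most of the bases of 14 of the 27 peaks at 4-fold or more, on 8 of the 19 hosts. Over all wide peaks on protein-coding hosts, intron 1 of the longest protein-coding transcript held most of the peak in 57.1% of the fasted, 34.8% of the 2 h, 27.4% of the 10 h and 25.2% of the IgG cases. For narrower peaks on the same hosts the shares were 42.7%, 25.4%, 23.6% and 24.9% in the same order of lists. In the IgG list the shares for wide and narrower peaks were close. The introns under wide peaks had a median length of 82.5 kb (fasted), 65.5 kb (2 h), 75.2 kb (10 h) and 85.1 kb (IgG).

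Wide peaks were denser than narrow ones in every list, IgG included. Their median density was 45.0 (fasted), 42.9 (2 h) and 50.8 (10 h) normalised tags per kb and 33.8 with IgG, where peaks from 2000 bp up to the limit had 36.9, 29.7, 36.4 and 21.1 and all peaks under 5000 bp had 25.6, 20.6, 25.2 and 15.3 tags per kb in the same order of lists. Per tag outside the Rn7sk peak, the IgG median for wide peaks was 54.0 tags per kb, above the 3 NONO medians, so the order of IgG against NONO turns on this scaling. The input under them was denser too. Input density, taken as tags per kb divided by fold, had a median of 16.2 (fasted), 17.9 (2 h), 22.7 (10 h) and 12.4 (IgG) tags per kb under wide peaks, against 9.09, 6.39, 8.84 and 3.80 under narrower ones. The part of input density in the width of peaks was not tested.

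**Figure D4:**
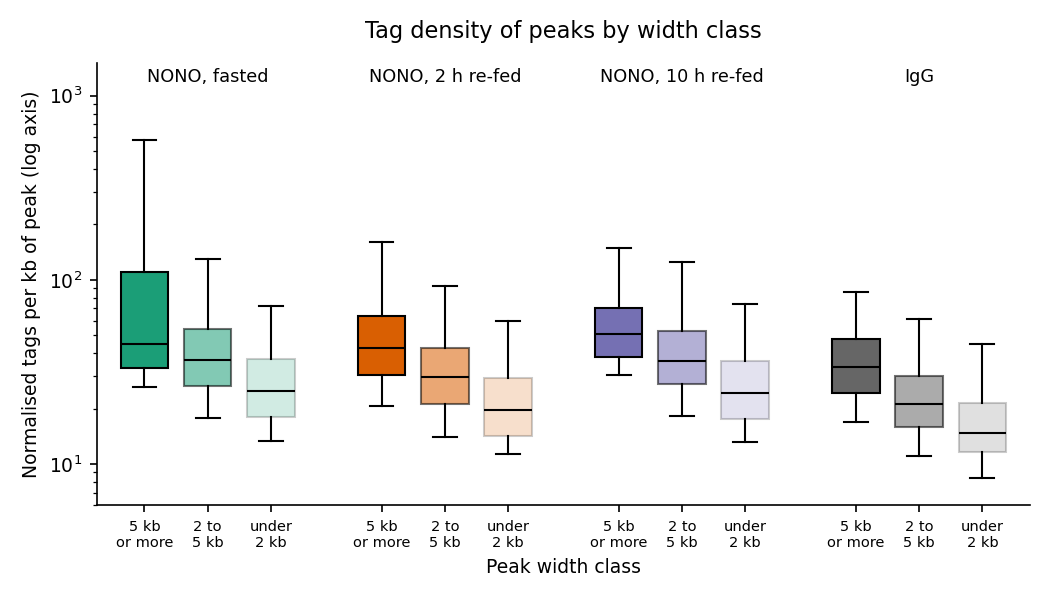
Normalised tags per kb of peak (vertical, log axis) for peaks of 5 kb or more, 2 to 5 kb and under 2 kb in each list; boxes show quartiles with the median and whiskers the 5th and 95th percentiles over peaks, not over replicates. The median is highest in the widest class of all 4 lists, at 45.0 tags per kb for fasted wide peaks and 33.8 for IgG wide peaks, which is 54.0 when the Rn7sk peak is left out of the IgG total.

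Several dense wide peaks lay on genes of growth signalling and liver metabolism. At 2 h Egfr, the receptor of epidermal growth factor, carried 6 wide peaks with 31967.2 tags in all. The widest, chr11:16822995-16839412, had 566 tags per kb at 2.38-fold. IgG peaks with 94.5 tags per kb covered 65.2% of it, the largest at 2.31-fold. The fasted and 10 h lists had no wide peak on Egfr, and the IgG list had 5. Summed over all its peaks Egfr had 6179.8 (fasted), 53569.5 (2 h), 4054.0 (10 h) and 8416.3 (IgG) normalised tags, so the 2 h value stood far above the others. These sums are not divided by input. The densest of the 6, chr11:16784739-16795083, had 714 tags per kb at 2.35-fold over the input of that time, against 143 tags per kb with IgG. The largest IgG peak over it had 2.16-fold. For both of these peaks the 2 h and IgG folds thus lay closer than the densities.

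Cyp7b1, too, had its highest sum at 2 h. Its 8 wide peaks at 2 h covered 62.7% of the gene body with 29869.2 tags, against 1 wide peak and 4.14% when fasted, none at 10 h, and 4 wide peaks and 24.5% with IgG. Summed over all peaks Cyp7b1 had 6729.9 (fasted), 34951.4 (2 h), 3395.2 (10 h) and 5874.6 (IgG) normalised tags, again not divided by input. The widest 2 h peak, chr3:18183683-18209848, had 2.66-fold, against 2.56-fold in the largest IgG peak over it. For the 2 h peak chr3:18215563-18234600 the values were 3.61- and 2.74-fold. Ghr, the growth hormone receptor, had 10 wide peaks at 2 h and 14 with IgG and none in the fasted and 10 h lists, and here the summed tags were 32526.2 at 2 h and 19478.7 with IgG, so the 2 values were closer than for Egfr.

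Cps1, the first enzyme of the urea cycle, had a wide peak over the same region at 2 h (chr1:67158911-67165284, 363 tags per kb, 2.12-fold) and at 10 h (chr1:67158976-67165280, 587 tags per kb, 2.20-fold), and no IgG peak met either. Fasted peaks covered 67.7% of the 2 h region at 424 tags per kb and 3.28-fold in the largest. The IgG list had its own wide peak elsewhere in Cps1, chr1:67177419-67186427, with 345 tags per kb at 2.14-fold. Slc7a2, a transporter of arginine and other cationic amino acids, had a wide peak in all 4 lists. Over one region at the 3′ side of the gene, chr8:40904882-40910910, the 10 h peak had 585 tags per kb at 3.86-fold. A narrower fasted peak had 1825 tags per kb at 4.37-fold, and the wide 2 h peak had 226 tags per kb at 3.11-fold. IgG peaks there had 55.6 tags per kb, at 2.02-fold in the largest and 2.63-fold in the highest. The fasted library was thus the densest there although its peak was too narrow to be a member. The wide fasted peak of the gene lay elsewhere, at chr8:40875924-40883617, with 214 tags per kb at 2.44-fold. IgG peaks that met it had 41.6 tags per kb, and the largest had the higher fold, at 2.62.

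Hosts were few and long. Wide peaks fell on 27 (fasted), 521 (2 h), 88 (10 h) and 229 (IgG) host genes, the host being the gene whose body covers most of the peak, and 605 genes were host in at least 1 list. Protein-coding genes were host to 87.5%, 96.0%, 96.6% and 93.8% of wide peaks in the same order of lists. Median host length per peak was 130.4 kb (fasted), 172.5 kb (2 h), 200.4 kb (10 h) and 269 kb (IgG), against 101, 94.8, 95.1 and 95.9 kb for peaks under 5000 bp. Hosts over 300 kb carried 21.9%, 32.4%, 38.5% and 45.2% of wide peaks, against 15.0%, 13.0%, 14.5% and 15.2% of all peaks.

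Some genes carried chains of wide peaks. Zbtb20, a transcriptional repressor abundant in hepatocytes, was host to 35 wide peaks at 2 h and 27 with IgG. Counting every peak that lies to at least 50% in the gene, wide peaks summed to 49.7% of its 766722 bp at 2 h, 2.22% at 10 h and 35.3% with IgG, and none lay there in the fasted list. Immp2l had 22 (2 h), 11 (10 h) and 24 (IgG) wide peaks by the same count, covering 28.4%, 8.21% and 29.7% of the gene. In Dpyd, which encodes the first enzyme of pyrimidine breakdown, the 20 wide peaks at 2 h covered 17.7% and the 22 with IgG 17.8%. In Adk, the adenosine kinase gene, 9 wide peaks at 2 h covered 28.8% and 15 with IgG 34.5%. The chains at 2 h and with IgG thus covered like shares of Immp2l, Dpyd and Adk. Only 0 (fasted), 44 (2 h), 1 (10 h) and 21 (IgG) hosts carried 5 or more wide peaks.

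Within their hosts wide peaks lay nearer the 5′ end than narrower ones. The median centre stood at 24.3% (fasted), 36.9% (2 h), 36.1% (10 h) and 39.6% (IgG) of the gene length from the start, against 41.6%, 50.3%, 50.9% and 49.97% for narrower peaks on the same hosts. This shift was present in the IgG list as well.

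Exons made up little of most wide peaks. No exon base lay in 59.4% (fasted, 95% interval 40.6 to 76.3%), 64.0% (2 h, 61.0 to 66.8%), 64.1% (10 h, 54.7 to 72.8%) and 69.4% (IgG, 65.3 to 73.3%) of wide peaks. A longer peak meets an exon more easily, so the share of bases compares better: exons held 13.3% (fasted), 4.50% (2 h), 6.93% (10 h) and 4.57% (IgG) of wide-peak bases, against 6.93%, 6.82%, 7.11% and 7.14% for narrower peaks of those lists. The fasted value rests on Neat1, whose long isoform is a single exon. Without the peak on Neat1 in each list, an alternative chosen after seeing the data, exons held 4.42% (fasted), 4.28% (2 h), 5.91% (10 h) and 4.16% (IgG) of wide-peak bases. Exons of protein-coding genes held 2.34%, 2.63%, 4.10% and 2.55%, against 5.42%, 5.24%, 5.59% and 5.46% for narrower peaks. The peaks with 50% or more exon bases numbered 2 (fasted), 28 (2 h), 5 (10 h) and 13 (IgG).

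Both non-coding and protein-coding genes had exon-rich wide peaks. Kcnq1ot1, the imprinted antisense RNA of the Kcnq1 locus, had a fully exonic wide peak at 2 h (chr7:143271517-143276643, 31.6 tags per kb, 2.22-fold) and one with IgG (chr7:143254751-143264884, 18.6 tags per kb, 3.54-fold). Pabpc1, the cytoplasmic poly(A)-binding protein gene, was 54.2% exonic under its fasted peak (106 tags per kb, 2.31-fold) and 39.5% under its 2 h peak (84.4 tags per kb, 2.23-fold). Cop1, a ubiquitin ligase gene, was 88.2% exonic under its 10 h peak (52.8 tags per kb, 2.29-fold). Gm26917, a non-coding gene on chromosome 17, held the densest wide IgG peak, with 1154 tags per kb at 24.7-fold and 97.5% exon bases. The gene covered 55.1% of this peak. NONO peaks met it too, with 278 (fasted), 883 (2 h) and 876 (10 h) tags per kb. Their highest folds were 21.4, 27.0 and 7.14 in the same order. At 2 h and 10 h these were the folds of the peak with most tags, but the fasted peak with most tags had 3.13-fold.

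The table of microRNA genes held 1005 hairpins. Whole hairpins under a wide peak numbered 13 at 2 h, 2 with IgG and 0 in the fasted and 10 h lists, while peaks of any width held 56 (fasted), 101 (2 h), 54 (10 h) and 32 (IgG). The let-7 cluster of Mirlet7a-1, Mirlet7f-1 and Mirlet7d lay under 1 peak at 2 h, chr13:48533197-48540132 on the non-coding host 6720427I07Rik, with 2007.5 tags, 289 tags per kb and 2.38-fold. Fasted, a peak of 3285 bp with 487 tags per kb and 2.58-fold covered all 3 hairpins. At 10 h a peak of 944 bp with 508 tags per kb and 2.06-fold lay over Mirlet7d alone, and no IgG peak met any of the 3. The peak was thus widest at 2 h and held the most tags there, 2007.5 against 1598.9 (fasted) and 479.3 (10 h). Its density was lowest at 2 h, but these densities are means over peaks of unlike width.

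The miR-30 genes gave another picture. Mir30a and Mir30c-2 on chromosome 1 lay under separate wide peaks at 2 h, of 164 and 104 tags per kb at 2.22- and 2.68-fold, and together under 1 IgG peak of 27692 bp with 80.6 tags per kb at 2.39-fold. Narrower peaks covered them in the fasted list (279 and 190 tags per kb) and at 10 h (260 and 201 tags per kb). Mir30c-1 and Mir30e, inside Nfyc, a subunit gene of the CCAAT-binding factor NF-Y, shared a peak of 5240 bp at 2 h (59.5 tags per kb, 3.25-fold) and narrower ones of 4045 bp (fasted, 62.5 tags per kb) and 4773 bp (10 h, 68.3 tags per kb), with no IgG peak over the hairpins. Mirlet7c-1 and Mir99a on chromosome 16 lay under a 2 h peak of 5810 bp at 24.0 tags per kb and 3.78-fold, beside a narrower 10 h peak with 90.6 tags per kb and a fasted peak with 65.5 tags per kb over Mirlet7c-1 alone. No IgG peak lay over these hairpins, but IgG peaks covered 27.7% of the bases of the 2 h peak.

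The 2 h wide peaks were mostly wide in that list alone, whereas most wide peaks of the other lists met a wide peak elsewhere. A wide peak of another list met 22 of 32 fasted, 333 of 1082 2 h, 75 of 117 10 h and 296 of 533 IgG wide peaks. The lists differ in their number of wide peaks, which bears on these counts and on the regions and hosts below. The 1082 peaks at 2 h had only 32 fasted, 117 10 h and 533 IgG wide peaks to meet. The contrast is thus not a measure of what is particular to 2 h. Joined where they overlap, the 1764 peaks gave 1337 separate regions, of which 1038 held a wide peak of a single list, 749 of them of the 2 h list and 237 of the IgG list. All 4 lists were wide in 2 regions and all 3 NONO lists in 4, those 2 included. At the level of hosts, the 23 that the fasted and 2 h lists shared were 85.2% of the fasted hosts and 4.41% of the 2 h hosts. The 163 hosts shared by the 2 h and IgG lists were 31.3% of the 2 h hosts and 71.2% of the IgG hosts. A wide peak in all 4 lists was found on Neat1, Magi1, Ext1, Dpyd, Ptprg and Slc7a2, but only 2 joined regions, as given above, held one of each list. Wide peaks of all 3 other lists met 1 fasted, 2 2 h, 1 10 h and 1 IgG wide peak. Those on Neat1 were among them, so in the other region only the 2 h peak met the wide peaks of all 3 other lists. Magi1 encodes a scaffold of cell junctions and Ext1 a glycosyltransferase of heparan sulfate synthesis.

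Most wide NONO peaks were met over at least 1 bp by a peak of another list, though often over a minor part of their bases. Fasted peaks covered 50% or more of 12.2% of the 2 h and 29.9% of the 10 h wide peaks. An IgG peak met 29 of the 32 fasted wide peaks (90.6%, beside 33.7% of all fasted peaks), 1062 of 1082 at 2 h (98.2%, beside 39.3%) and 113 of 117 at 10 h (96.6%, beside 39.5%). Between the NONO lists, a 2 h peak met 32 of 32 fasted wide peaks (background 51.2%) and a 10 h peak met 30 (39.6%). A fasted peak met 944 of the 2 h wide peaks (28.9%) and a 10 h peak 1034 (40.1%). A fasted peak met 103 of the 10 h wide peaks (29.4%) and a 2 h peak 113 (52.8%). A long region meets other peaks more easily than a short one, so the width that chose the members can itself raise these counts.

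The share of bases covered depends less on width. IgG peaks covered 43.8% (fasted), 57.6% (2 h) and 56.7% (10 h) of the bases of wide NONO peaks, against 22.8%, 30.04% and 28.3% of the bases of all NONO peaks. Peaks of the 2 h list covered 75.5% of fasted and 80.7% of 10 h wide-peak bases, whereas fasted peaks covered 25.2% of 2 h wide-peak bases. Wide IgG peaks were covered to 16.6%, 71.4% and 30.4% by the fasted, 2 h and 10 h lists. The lists differ in the bases they cover in all, which bears on each of these shares.

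**Figure D5:**
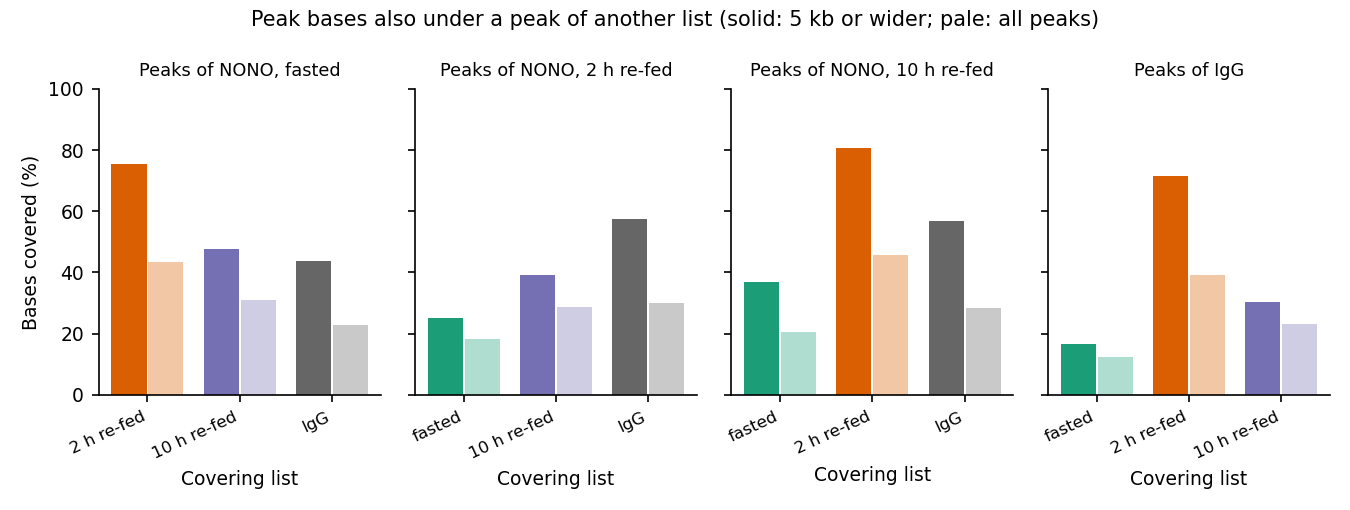
Percent of the bases of wide peaks (solid bars) and of all peaks (pale bars) of each list that also lie under a peak of another list, named below the bar. For the 2 h list the IgG bar is the highest, at 57.6% of wide-peak bases against 30.04% for all peaks.

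For the wide peaks that IgG peaks met, the IgG density was taken over the whole widths of those IgG peaks. The values compared thus do not come from the same bases. NONO density was higher than IgG density in 29 of 29 fasted, 1048 of 1062 2 h and 108 of 113 10 h cases, with median ratios of 2.19, 1.86 and 2.06. With the Rn7sk peak left out of the IgG library total the ratios were 1.37, 1.16 and 1.29, and NONO was higher in 17, 764 and 90 cases. The NONO fold over input exceeded that of the largest overlapping IgG peak in 9, 201 and 17 cases in the same order of times. The domains on Ptprg, Ncoa2, Acot12 and Tshz1 described above were denser than IgG by larger ratios, as their values above show, and 1300002E11Rik had no IgG peak to compare.

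The wide NONO peaks without any IgG peak numbered 3 (fasted), 20 (2 h) and 4 (10 h). In the fasted list they were those of 1300002E11Rik, of Cyp2c38 (a cytochrome P450 gene, 79.4 tags per kb, 2.08-fold) and of Tmtc2 (38.4 tags per kb, 2.10-fold). The 2 h list added Sfpq, the partner protein of NONO, with 2770.8 tags at 399 tags per kb and 2.27-fold over chr4:127027846-127034783. There the fasted list had no peak, and 10 h peaks with 372 tags per kb covered 53.3% of the region. Nr1h4, the bile acid receptor FXR, had 270.5 tags per kb at 2.44-fold at 2 h. A 10 h peak with 206 tags per kb covered 73.0% of the region, and no fasted peak met it. Gulp1, an adaptor of engulfment, had the only wide NONO peak that no other list met, with 82.5 tags, 13.8 tags per kb and 3.94-fold at 2 h; its 35 peaks at 2 h held 672.5 tags and the other 3 lists had none on the gene.

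The 12 gene lists fixed for liver and nuclear functions held 233 genes, of which 232 were found in the annotation. Of all genes with a peak, 0.428% carried a wide one in the fasted list, 6.27% at 2 h, 1.09% at 10 h and 2.65% in the IgG list. Among 20 genes of hormone, growth factor and nutrient signalling, a wide peak was on 0 of 17 genes with a peak (fasted), 5 of 19 (2 h), 1 of 19 (10 h) and 4 of 19 (IgG), which is 26.3% at 2 h and 21.1% with IgG. At 2 h the genes were Egfr, Ghr, Pik3ca, Nr3c1, the glucocorticoid receptor gene, and Prlr, the prolactin receptor gene. Among 24 genes of lipid synthesis, oxidation and ketogenesis, the counts were 1 of 20, 4 of 24, 0 of 23 and 4 of 23 in the same order of lists, with Acot12, Elovl6 (a fatty acid elongase), Acaca and Ppara at 2 h. Elovl6 had 6 wide peaks at 2 h, at 243 tags per kb in the widest, and 5 with IgG, at 43.0 tags per kb in the widest.

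Among 20 genes of amino acid breakdown and the urea cycle the counts were 1 of 15, 3 of 19, 2 of 18 and 3 of 18, with Slc7a2, Cps1 and Oat (ornithine aminotransferase) at 2 h and Ass1 (argininosuccinate synthase) with IgG only. For 27 genes of cytochrome P450, bile acid and xenobiotic metabolism they were 1 of 18, 3 of 22, 0 of 24 and 1 of 23, with Cyp7b1, Nr1h4 and Aox3 (an aldehyde oxidase) at 2 h. For 20 genes of glucose, glycogen and gluconeogenesis they were 0 of 15, 2 of 17, 0 of 17 and 2 of 17: Foxo1, a transcription factor restrained by insulin, had 3 wide peaks at 2 h, and Gbe1, the glycogen branching enzyme, had 9 at 2 h and 1 with IgG. For 29 secreted hepatocyte proteins they were 0 of 14, 1 of 16, 0 of 18 and 1 of 21, the gene being Igf1, with 4 wide peaks at 2 h and 3 with IgG. For 20 circadian clock genes they were 0 of 15, 2 of 16, 0 of 17 and 2 of 17, with Clock and Hlf at 2 h and Per2 and Rora with IgG. Genes of these lists were not matched for length, and no list was tested against the background.

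Among 25 paraspeckle and nuclear RNA-binding protein genes a wide peak was on 0 of 23 genes with a peak (fasted), 3 of 22 (2 h), 0 of 23 (10 h) and 1 of 23 (IgG): Sfpq, Taf15 and Rbm39 at 2 h, and Pspc1, the third DBHS gene, with IgG. Of the nuclear long non-coding RNA genes, Neat1 and Kcnq1ot1 had a wide peak. Markers of other liver cells had none: 0 of 11 for Kupffer cells and leukocytes, 0 of 10 for endothelium and 0 of 12 for stellate cells and cholangiocytes, in each of the 4 lists. Few of these genes had any peak in the fasted, 2 h, 10 h and IgG lists. The numbers were 4, 3, 5 and 4 for Kupffer cells and leukocytes and 4, 5, 6 and 5 for endothelium. They were 2, 2, 2 and 5 for stellate cells and cholangiocytes. With so few, a count of 0 cannot be told from the background shares given above. Of 6 hepatocyte markers, 2 (fasted), 2 (2 h), 3 (10 h) and 4 (IgG) had a peak, with 3914.9, 8889.5, 13566.7 and 13950.7 normalised tags, and 0 of 5 cholangiocyte markers had one in any list. Cps1, which is among these hepatocyte markers, alone had 3763.2 (fasted), 6906.1 (2 h), 11168.9 (10 h) and 7900.0 (IgG) tags, so most of each sum was from that gene. Kupffer cell markers summed to 23.8, 14.2, 60.8 and 25.8 tags, endothelial markers to 566, 1373, 1273 and 604, and stellate cell markers to 47.1, 40.8, 82.0 and 2464, in the order fasted, 2 h, 10 h and IgG. The part of such differences in cell content was not tested. In such bulk nuclei, fewer cells of a type and less RNA per cell cannot be told apart.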

How the data were processed

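NONO and IgG immunoprecipitates and their inputs were sequenced as stranded, rRNA-depleted total RNA, per the labels' protocols. Reads were checked with FastQC 0.11.2 and aligned with STAR 2.4.0k to mm10, and HOMER was named too, per the submitters' processing notes. Peak calling used HOMER, per the file headers: windows of 500 bp, joining up to 1000 bp, both strands together, 2-fold over input. The deposited signal is tags per peak, normalised by the authors to 10000000 tags; the deposited fold is their ratio to input tags, and the deposited score, HOMER's own, only ranked peaks within a list. The deposited peak length gave the members.

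From these, tags per kb, exon share (union of all GENCODE M21 exons), host genes, overlap (1 bp) and covered bases were computed with scipy 1.17.1, pandas 2.3.3 and numpy 2.4.6 under Python 3.11.15, and plotted with matplotlib 3.10.9; interval code was checked on simulated regions. Where peaks of another list met a region, their tags per kb are their summed tags over their summed widths, bases outside it included. Reads were not used here. Strand could not be used, so overlapping genes cannot be told apart. Members, gene lists and the rule for named genes (the widest, densest, most exonic and most shared peaks, and list members) were chosen with earlier results of these data known. Genes named for fold over input, microRNA genes, Pik3ca, Acaca and the peaks found in no other list were named after their values were seen. Alternatives were other widths, joining, fold, overlap, exon sets and library totals.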

Additional observations from a re-analysis of the deposited data

How the results depend on the processing

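With 1 library per group no replicate could be left out. No paired analysis was possible because there was a single library in every group. Each value below is given for fasted, 2 h, 10 h and then IgG unless said otherwise, and the cause of a change was not tested beyond what each setting does by construction. From 4000 bp there were 101, 1906, 280 and 931 peaks on 84, 813, 202 and 375 hosts, and from 10000 bp there were 2, 156, 1 and 91 peaks on 2, 72, 1 and 44 hosts. Joining peaks within 2000 bp gave 1037, 5012, 2288 and 3453 wide regions, and a fold of 4 or more left 9, 16, 2 and 7 peaks. With 4 or more fold, the fasted list came second, before the IgG and 10 h lists, and at 10000 bp it came before the 10 h list by 2 peaks against 1. With all lists cut to equal length by score the numbers moved by less than 1.5 times. Median density from 4000 bp was 38.6 tags per kb at 2 h and 29.8 with IgG, and from 10000 bp it was 824, 57.9, 92.5 and 47.2. Leaving the largest peak out of the library total moved the IgG median to 54.0 tags per kb, above the 3 NONO medians.

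The share of wide peaks with no exon base was 67.3% at 2 h and 100% at 10 h (1 peak) from 10000 bp. With exons of protein-coding genes only it was 70.8% at 2 h and 76.6% with IgG. Leaving out retained-intron transcripts, an alternative chosen after seeing the data, kept all 4 shares inside their intervals. IgG peaks met 94.9% of 2 h and 91.1% of 10 h peaks from 4000 bp, and 100% at each of the 3 times from 10000 bp. With a fold of 4 or more required of both peaks they met 44.4% (4 of 9), 56.3% (9 of 16) and 100% (2 of 2) of fasted, 2 h and 10 h peaks. With at least 50% of the bases covered, IgG met 37.5%, 54.3% and 58.1% of them. Under that setting fasted peaks were met to 81.3% by 2 h and 40.6% by 10 h peaks, 2 h peaks to 12.2% by fasted and 30.3% by 10 h peaks, and 10 h peaks to 29.9% by fasted and 88.9% by 2 h peaks. At 4-fold or more Neat1 kept 0 bp under peaks at 2 h, at 10 h and with IgG, Zbtb20 kept 0, 4481, 5742 and 19532 bp, and Acot12 kept 9192 (2 h), 4466 (10 h) and 3110 bp (IgG).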

Other observations

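Some wide peaks of the IgG list were met by no NONO peak. A pair of them lay on Ass1, with 110.0 and 93.9 normalised tags per kb at 2.03- and 2.19-fold over input. Another lay on Lonp2, with 38.9 tags per kb at 2.62-fold, and another on Prkg1, with 13.03 tags per kb at 2.83-fold. These genes were named after their values were seen.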
